A study of Homo sapiens with 6 samples.

Results

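Expression of 10 genes that make, clear or use nicotinamide adenine dinucleotide (NAD) was examined in the thyroid cell line HTori-3.1. They are the NAD synthesis enzymes NAMPT, NMNAT1 and NAPRT, the nicotinamide-clearing enzyme NNMT, and the sirtuins SIRT1, SIRT2, SIRT3, SIRT5, SIRT6 and SIRT7. The genes were picked by symbol from the deposited table of read counts, which lists 22354 loci. All 10 are listed there, and all 10 passed the filter on low counts.

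RNA of HTori-3.1, an immortalized line of human thyroid follicular epithelial cells, was sequenced in 6 libraries, 3 labelled control with a wild type genotype and 3 labelled BMAL1 knockout. The cells labelled knockout had been infected with lentivirus carrying Cas9 and an sgRNA to BMAL1, a core factor of the circadian clock, and clones were picked after puromycin. Both groups had received etoposide, an inhibitor of topoisomerase II that causes DNA breaks, at 2 μM, for 12 h by the treatment field of the labels and for 24 h by the protocol. The labels do not say how many clones the 3 knockout libraries came from, whether the control cells were cloned, or whether replicates were separate cultures. The p-values therefore measure the spread between these samples, which may be technical. The comparison asks which transcripts differ after targeting of BMAL1.

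Sirtuins remove acetyl and other acyl groups from lysines of histones, transcription factors and metabolic enzymes, and each reaction consumes NAD and releases nicotinamide. NAMPT, the rate-limiting enzyme of salvage, converts nicotinamide to nicotinamide mononucleotide, which the NMNAT enzymes turn into NAD. In mouse tissues, CLOCK and BMAL1 bind E-boxes of the Nampt promoter and SIRT1 deacetylates BMAL1 and PER2, so that NAD salvage and the clock form a feedback loop.

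The libraries labelled control held 26893063, 27029060 and 28513703 counts for replicates 1 to 3, and those labelled BMAL1 knockout held 43148059, 29860233 and 43563391. Levels are given as CPM, counts per 1e6 after TMM normalization, and as mean ± SD with n = 3 in each group. A gene was called when edgeR's quasi-likelihood F-test gave it an adjusted p under 0.05. Of 14860 loci tested, 150 (1.01%) were called higher and 202 (1.36%) were called lower in the libraries labelled BMAL1 knockout.

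BMAL1, the targeted gene (chr11:13276652-13387266 of hg38), stood at 11.3, 12.2 and 14.6 CPM in the libraries labelled control and at 17.9, 19.8 and 19.4 CPM in those labelled BMAL1 knockout. All 3 libraries labelled BMAL1 knockout were above all 3 labelled control, so the transcript goes against the label, and the libraries are called by their labels throughout. Its log2 fold change was 0.58 (SE 0.11; adjusted p = 0.0237 by edgeR's quasi-likelihood F-test and the Benjamini-Hochberg procedure). Fits that omitted a library gave BMAL1 adjusted p-values from 0.0153 to 0.129 by edgeR's quasi-likelihood F-test and the Benjamini-Hochberg procedure. The adjusted p of BMAL1 by that test was under 0.05 for 2 of these 6 fits, which lacked control replicate 3 and BMAL1 knockout replicate 1, respectively. The log2 fold change of BMAL1 lay between 0.50 and 0.69 over the 6 fits. Gene-level counts do not show whether the reading frame is intact, and BMAL1 protein was not analysed here. The study's methods name western blot as the check of the knockout. NR1D1, which encodes the clock repressor REV-ERBα and is a direct target of BMAL1, measured 7.75, 7.11 and 6.86 CPM in the libraries labelled control against 3.07, 3.24 and 2.84 CPM in those labelled BMAL1 knockout. The groups were far apart, with a log2 fold change of -1.25 (SE 0.14; adjusted p = 0.00121 by edgeR's quasi-likelihood F-test and the Benjamini-Hochberg procedure), and NR1D1 was called in all 6 fits that left out a library. Exons of NR1D1 overlap THRA on the other strand, and a lncRNA on the other strand shares exon bases with BMAL1. Without a stated strand, reads of such pairs cannot be told apart.

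The thyroid label was checked against markers. The filter on low counts removed the thyroid follicular cell markers TG and TSHR, which had at most 13 counts in any library. NKX2-1, DUOXA2 and IYD had 0 counts in each library, which allows up to 0.112 CPM in the shallowest. PAX8, the most abundant thyroid marker, and FOXE1 were present at 133 ± 15.4 and 48.0 ± 0.717 CPM in the libraries labelled control. None of the 4 thyroid markers tested was called by edgeR, DESeq2 or limma-voom, and 2 were lower at an unadjusted p under 0.05 in edgeR. Their summed level was 182, 182 and 212 CPM in the libraries labelled control and 141, 158 and 183 CPM in those labelled BMAL1 knockout. Of 6 epithelial markers tested of 8, 4 lay above 0 and 2 below, with a median log2 fold change of 0.16. KRT18 was called lower by edgeR, DESeq2 and limma-voom, and KRT8, the most abundant, was called lower by DESeq2 and by edgeR once each library's trend on exon GC content, described below, was removed. KRT7 was not called and stood at 710 ± 31.1 and 760 ± 36.3 CPM. The epithelial markers summed to 2991, 3045 and 2898 CPM against 2541, 2482 and 2564 CPM, sums that are made up mainly of KRT8, KRT18 and KRT7. Of 5 fibroblast and mesenchymal markers tested of 11, edgeR and limma-voom called none, 2 were lower at an unadjusted p under 0.05 in edgeR, and VIM was called lower by DESeq2 and by edgeR with that trend removed. VIM was the most abundant, the sums were 2919, 2954 and 2751 CPM against 2406, 2599.5 and 2719 CPM, and DCN and LUM had 0 counts in every library. Of 4 blood and endothelial markers tested, PTPRC, the most abundant, was called lower. The sums were 8.42, 8.08 and 8.96 CPM against 4.08, 4.06 and 5.37 CPM, and CD3E, MS4A1 and LYVE1 had 0 counts in all 6 libraries. Whether these markers have a part in the values below was not tested, and in bulk RNA fewer cells of a type and less RNA per cell cannot be told apart.

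Libraries of both groups differed by exon GC content, and BMAL1 knockout replicate 1 stood apart from the other libraries of its group. Loci with exon GC content under 40% lay above the mean of the 6 libraries by a median log2 of 0.16 in BMAL1 knockout replicate 1 and 0.09 in control replicate 3, and lay below it in the other 4. For loci over 60% GC the order was turned, with -0.14 in both of those libraries and between 0.06 and 0.09 in the others. With each library's trend on exon GC content removed, a fit that had GC values for 13578 of the loci (91.4%), 486 loci (3.58%) were called higher and 533 (3.93%) lower.

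None of the 10 NAD salvage enzymes and sirtuins was called higher or lower by edgeR's quasi-likelihood test, against 1.01% and 1.36% of all loci. DESeq2 and limma-voom also called 0 of the 10, and with the GC trend removed NNMT was the single member called. Over all loci, DESeq2 called 256 higher and 379 lower of 19440 with an unadjusted p, not all of which had an adjusted p. The limma-voom fit called 102 higher and 153 lower of 14860. At an unadjusted p under 0.05, 1 member was higher (SIRT1) and 1 was lower (NNMT), against 9.1% and 7.76% of all loci. The 3 values of each group did not overlap for 4 members, with SIRT1 higher and NNMT, SIRT3 and SIRT5 lower, against 11.8% higher and 11.5% lower over all loci. With the GC trend removed, 2 members were higher (SIRT1 and SIRT6) and 3 lower (NAPRT, NNMT and SIRT3) at an unadjusted p under 0.05, against 12.4% and 11.8% of all loci. The groups then did not overlap for 3 members higher (SIRT1, SIRT6 and SIRT7) and 4 lower (NAPRT, NNMT, SIRT3 and SIRT5), against 14.9% and 15.9%. No member passed a fold change over 2 together with p under 0.01, the limits named in the study's methods, taken here as edgeR's unadjusted p, and 0.915% of all loci passed them. The log2 fold changes ran from -0.33 for NAPRT to 0.27 for SIRT6, 5 above and 5 below 0, with a median of 0.01 beside 0.01 over all loci tested.

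**Figure D1:**
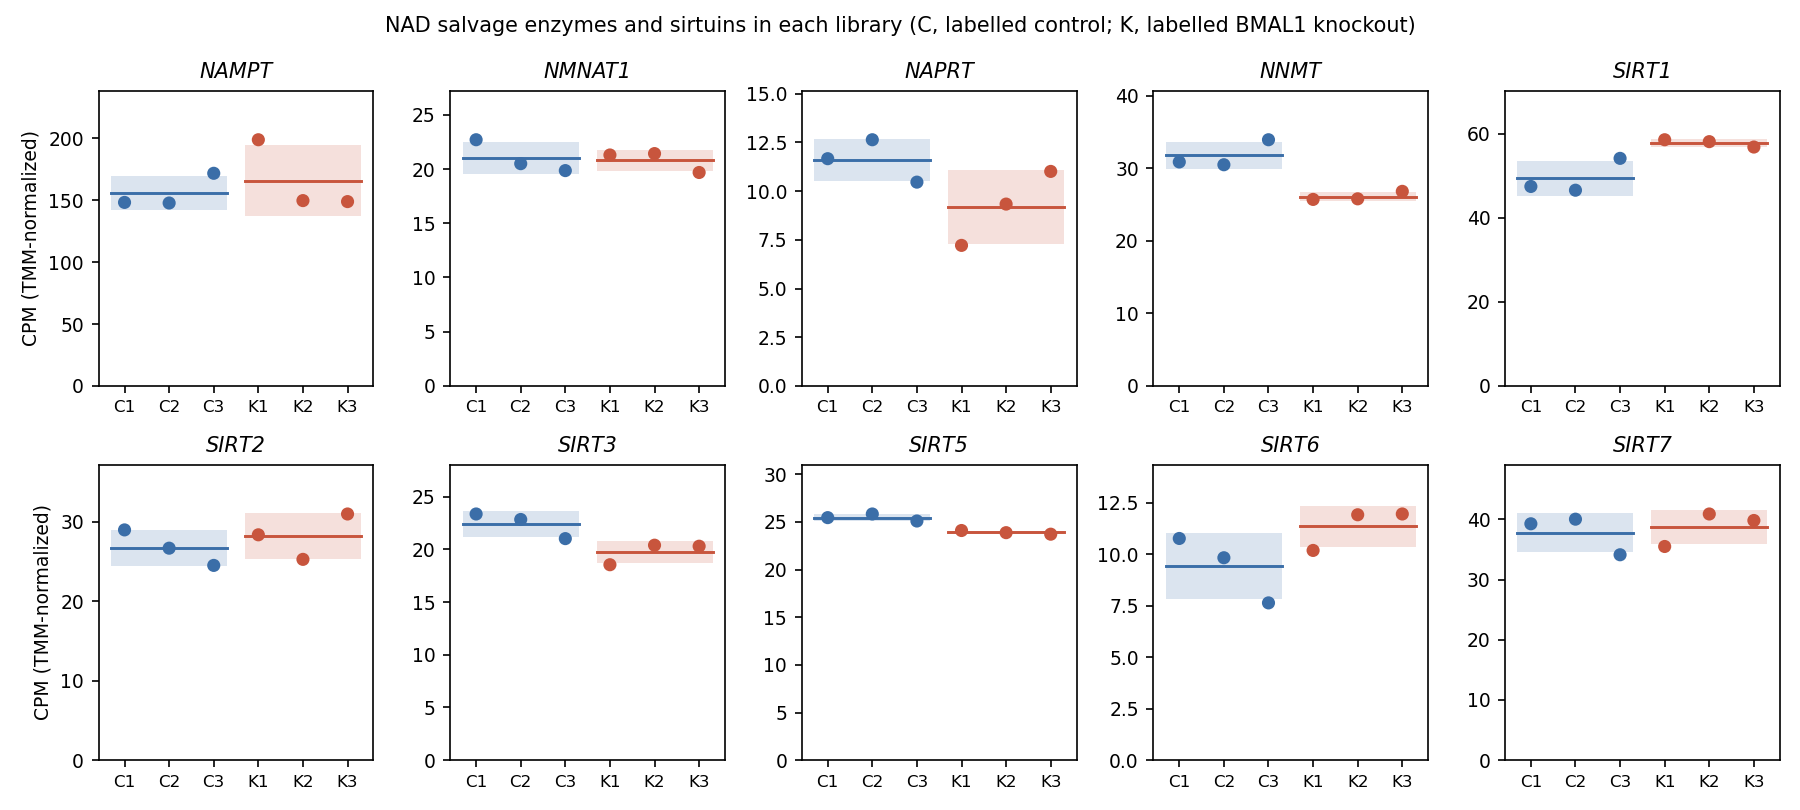
Level of each of the 10 genes in each library, in CPM on an axis from 0, with C1 to C3 labelled control and K1 to K3 labelled BMAL1 knockout; lines are group means and bands are 1 SD (n = 3). The groups are apart for NNMT, SIRT1, SIRT3 and SIRT5, and NAMPT is highest in K1 at 199 CPM.

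**Figure D2:**
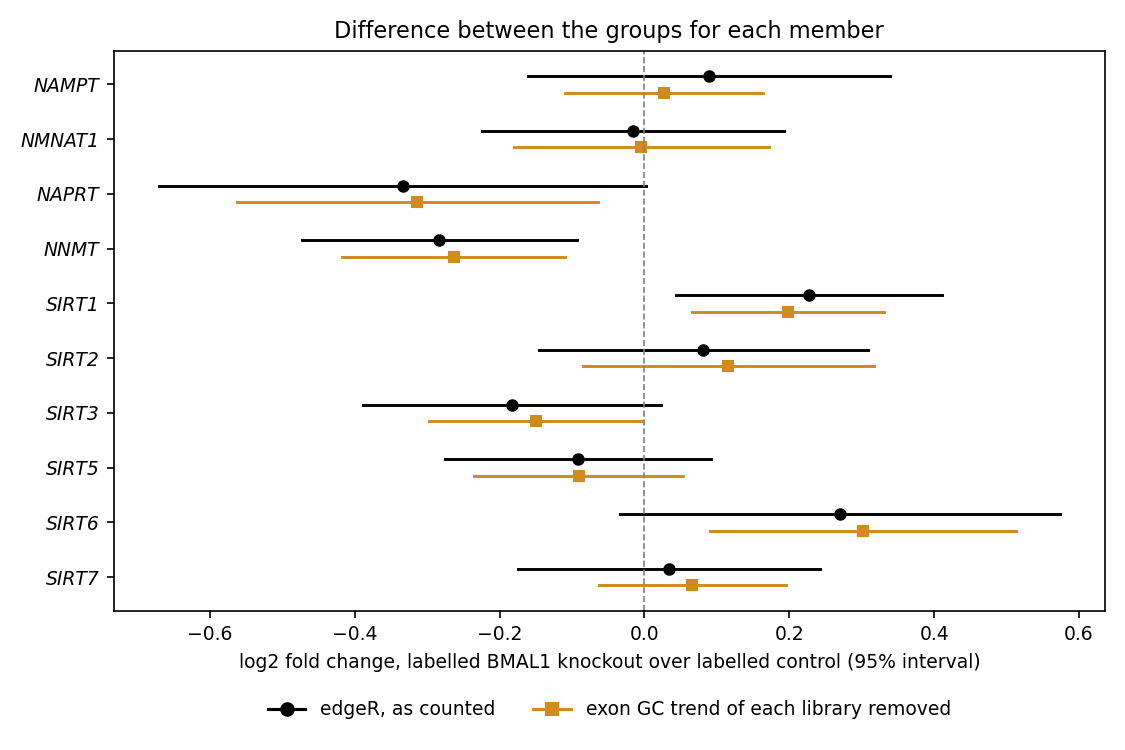
Log2 fold change of each member, libraries labelled BMAL1 knockout over labelled control, with its 95% interval, from edgeR as counted (black circles) and with each library's exon GC trend removed (orange squares). The intervals of NNMT and SIRT1 exclude 0 in both fits, and those of NAPRT, SIRT3 and SIRT6 do so only with the trend removed.

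NAMPT (chr7:106248298-106285966, reverse strand) stood at 148, 148 and 172 CPM in the libraries labelled control and at 199, 149.7 and 149 CPM in those labelled BMAL1 knockout. BMAL1 knockout replicate 1 was the highest and control replicate 3 the next, while the other 4 lay between 148 and 149.7 CPM, and the groups overlapped. The group levels were 156 ± 13.7 and 166 ± 28.6 CPM, with a log2 fold change of 0.09 (95% interval -0.16 to 0.34; adjusted p = 0.751 by edgeR's quasi-likelihood F-test and the Benjamini-Hochberg procedure). Without BMAL1 knockout replicate 1 the log2 fold change turned to -0.06. The exons of NAMPT have a GC content of 36.9%, and its 2 highest libraries are the 2 in which loci of low GC content were high. With the GC trend removed, NAMPT stood at 159, 155 and 161 CPM in the libraries labelled control and at 176, 154 and 154 CPM in those labelled BMAL1 knockout. The values then lay closer together, with BMAL1 knockout replicate 1 still highest, and the log2 fold change was 0.03 (95% interval -0.11 to 0.16). Among 12478 named loci, the profiles nearest to that of NAMPT over the 6 libraries were those of NOC3L, MOSPD2 and PIGK, at Euclidean distances of 0.0255, 0.0324 and 0.0329 between centred log2 CPM values. NOC3L, for instance, measured 139, 136 and 162 CPM against 185, 139.6 and 139 CPM. That the same 2 libraries are high follows from its choice by distance to NAMPT. The annotation has 3 NAMPT pseudogenes and an opposite-strand lncRNA that shares exon bases with NAMPT, so reads could be split among them.

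**Figure D3:**
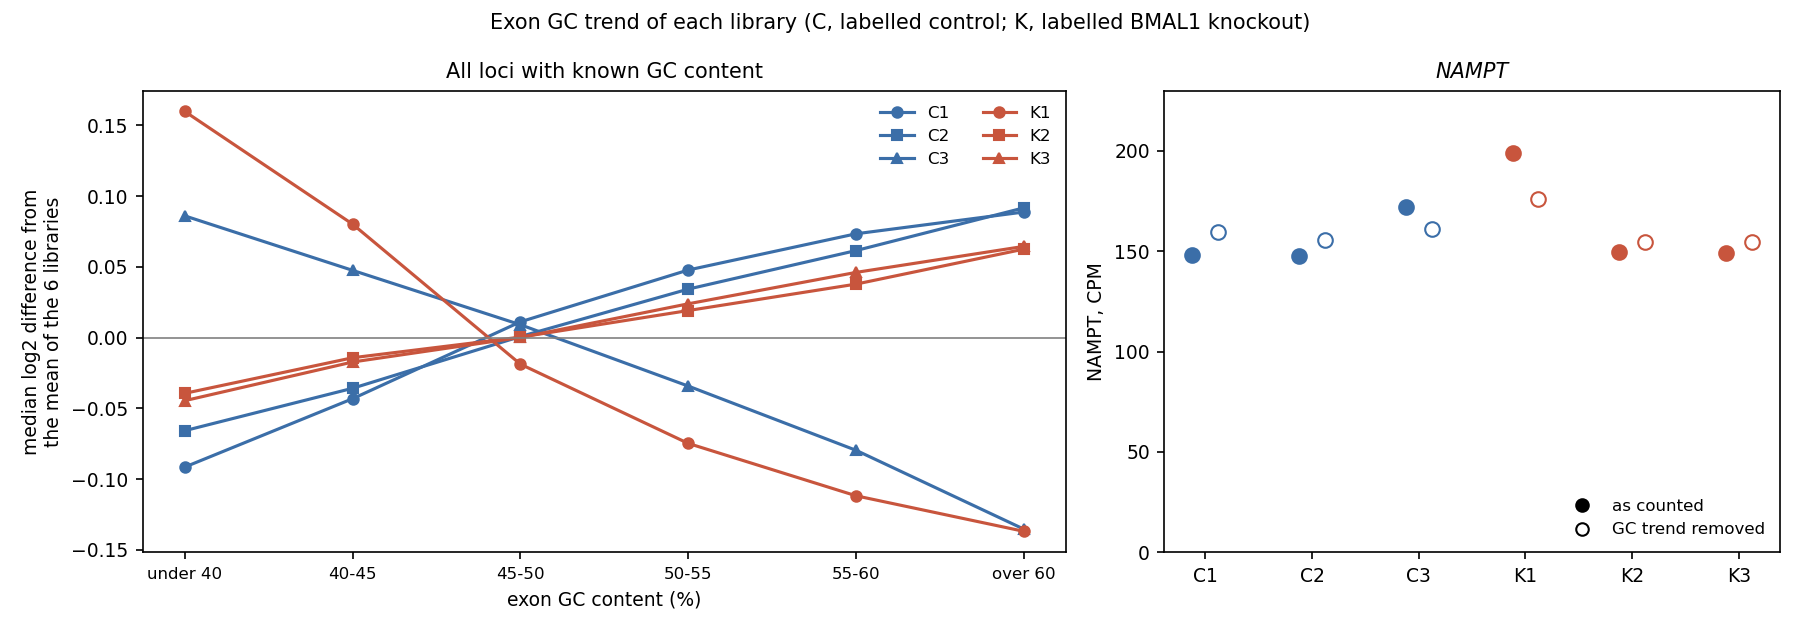
Left, median log2 difference from the mean of the 6 libraries for loci in 6 bins of exon GC content, 1 line per library (blue, labelled control; red, labelled BMAL1 knockout); right, NAMPT in CPM per library as counted (filled) and with the GC trend removed (open). K1 and C3 fall from left to right where the other 4 rise, and K1 moves from 199 to 176 CPM for NAMPT.

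NMNAT1 (chr1:9943428-9985501, forward strand), the nuclear enzyme that forms NAD from nicotinamide mononucleotide, measured 22.7, 20.5 and 19.9 CPM in the libraries labelled control and 21.3, 21.4 and 19.7 CPM in those labelled BMAL1 knockout. The groups overlapped throughout, and the log2 fold change was -0.02 (95% interval -0.22 to 0.19). Its sign turned under 4 of the 17 alternative settings. A same-strand lncRNA shares exon bases with NMNAT1, and 5 NMNAT1 pseudogenes are annotated.

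NAPRT (chr8:143574785-143578649, reverse strand), which starts NAD synthesis from nicotinic acid, measured 11.7, 12.6 and 10.5 CPM in the libraries labelled control and 7.22, 9.34 and 11.0 CPM in those labelled BMAL1 knockout. The groups overlapped only through BMAL1 knockout replicate 3, which lay above control replicate 3. With the GC trend removed NAPRT stood at 10.9, 11.7 and 11.8 CPM against 8.07, 8.96 and 10.5 CPM, without overlap. As counted, its log2 fold change was -0.33 (95% interval -0.67 to 0.00; adjusted p = 0.299 by edgeR's quasi-likelihood F-test and the Benjamini-Hochberg procedure). This was the lowest of the members, but without BMAL1 knockout replicate 1, the library with the lowest value, it was -0.18, above the -0.27 of NNMT in the same fit. Of NAPRT's exon bases, some are shared with 2 opposite-strand transcripts.

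NNMT (chr11:114257787-114313536, forward strand) methylates nicotinamide with S-adenosylmethionine and so draws it away from salvage. It measured 30.9, 30.5 and 33.9 CPM in the libraries labelled control and 25.7, 25.8 and 26.8 CPM in those labelled BMAL1 knockout. Every library labelled BMAL1 knockout lay below every library labelled control, and the 3 lay close together. The levels were 31.8 ± 1.89 and 26.1 ± 0.620 CPM (two-sided exact permutation test, p = 0.1, the smallest that 3 libraries against 3 can give). The log2 fold change was -0.28 (SE 0.09, 95% interval -0.47 to -0.09; unadjusted p = 0.00701, adjusted p = 0.117 by edgeR's quasi-likelihood F-test and the Benjamini-Hochberg procedure). With the GC trend removed it was -0.26 (SE 0.07; adjusted p = 0.0465 by edgeR's quasi-likelihood F-test and the Benjamini-Hochberg procedure). Over the 17 alternatives the log2 fold change of NNMT lay between -0.31 and -0.23, and its adjusted p between 0.0465 and 0.315. No annotated gene shares exon bases with NNMT.

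SIRT1 (chr10:67884656-67918390, forward strand), a nuclear deacetylase of histones, p53 and clock proteins, measured 47.4, 46.6 and 54.1 CPM in the libraries labelled control and 58.6, 58.1 and 56.8 CPM in those labelled BMAL1 knockout. All 3 libraries labelled BMAL1 knockout were above all 3 labelled control, with control replicate 3 nearest to them. The levels were 49.4 ± 4.14 and 57.8 ± 0.901 CPM (two-sided exact permutation test, p = 0.1). The log2 fold change was 0.23 (SE 0.08, 95% interval 0.04 to 0.41; unadjusted p = 0.0195, adjusted p = 0.192 by edgeR's quasi-likelihood F-test and the Benjamini-Hochberg procedure). Over the 17 alternatives it lay between 0.19 and 0.30, and the adjusted p between 0.0726 and 0.519. No annotated gene was found to overlap SIRT1.

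SIRT6 (chr19:4174109-4182566, reverse strand), a chromatin deacylase that acts in DNA repair and glucose metabolism, measured 10.8, 9.83 and 7.64 CPM in the libraries labelled control and 10.2, 11.9 and 12.0 CPM in those labelled BMAL1 knockout. Control replicate 1 lay above BMAL1 knockout replicate 1, so the groups overlapped as counted. With the GC trend removed SIRT6 stood at 10.1, 9.21 and 8.43 CPM against 11.3, 11.5 and 11.5 CPM, without overlap. As counted, its log2 fold change was 0.27 (95% interval -0.03 to 0.57; adjusted p = 0.352 by edgeR's quasi-likelihood F-test and the Benjamini-Hochberg procedure). This was the highest of the members, but without control replicate 3 it was 0.14, below the 0.30 of SIRT1 in the same fit. SIRT7 (chr17:81911939-81921323, reverse strand), a deacetylase of the nucleolus, lay at 34.1 to 40.0 CPM where labelled control and at 35.5 to 40.9 CPM where labelled BMAL1 knockout. The groups overlapped as counted, the log2 fold change was 0.03 (95% interval -0.17 to 0.24), and its sign turned under 3 of the 17 alternatives. MAFG shares exon bases with SIRT7 on the same strand.

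SIRT2 (chr19:38878555-38899862, reverse strand), the mainly cytoplasmic sirtuin that deacetylates tubulin, ranged over 24.5 to 29.0 CPM among libraries labelled control and over 25.3 to 31.0 CPM among those labelled BMAL1 knockout, and the groups overlapped (log2 fold change 0.08, 95% interval -0.15 to 0.31). The log2 fold change of SIRT2 was 0.01 without BMAL1 knockout replicate 3, 0.03 without control replicate 3, 0.14 without control replicate 1 and 0.15 without BMAL1 knockout replicate 2. Its exons overlap NFKBIB on the other strand.

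SIRT3 (chr11:215030-236931, reverse strand), the main deacetylase of mitochondria, measured 23.4, 22.8 and 21.0 CPM in the libraries labelled control and 18.6, 20.4 and 20.3 CPM in those labelled BMAL1 knockout. The groups did not overlap, but control replicate 3 and BMAL1 knockout replicate 2 lay close together. The log2 fold change was -0.18 (95% interval -0.39 to 0.02; adjusted p = 0.351 by edgeR's quasi-likelihood F-test and the Benjamini-Hochberg procedure). Its exons overlap RIC8A on the other strand. SIRT5 (chr6:13574227-13615158, forward strand), the mitochondrial desuccinylase, measured 25.5, 25.8 and 25.1 CPM in the libraries labelled control and 24.1, 23.9 and 23.7 CPM in those labelled BMAL1 knockout. The groups were narrow and did not overlap, yet the difference was small, with a log2 fold change of -0.09 (95% interval -0.27 to 0.09; adjusted p = 0.632 by edgeR's quasi-likelihood F-test and the Benjamini-Hochberg procedure). Leaving out each library in turn kept both SIRT3 and SIRT5 below 0, at -0.22 to -0.14 and -0.10 to -0.08 on the log2 scale. A lncRNA on the other strand shares exon bases with SIRT5.

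Levels of the members were compared with each other as RPKM, CPM per kilobase of all annotated exon bases of a gene. SIRT1 stood at 10.8 ± 0.907 and 12.7 ± 0.198 RPKM in the libraries labelled control and BMAL1 knockout, and NNMT at 12.2 ± 0.727 and 10.1 ± 0.239 RPKM. These 2 led the order over the 6 libraries and overlapped each other. NAMPT and SIRT7 came next, with ranges of 6.27 to 8.43 and 5.57 to 6.67 RPKM that overlapped. NMNAT1, SIRT2, SIRT3, SIRT6 and NAPRT followed between 2.54 and 4.99 RPKM, each with a range that overlapped the next in this order, and SIRT5 was lowest at 2.10 to 2.29 RPKM. The order depends on the length used. The exons of NAMPT span 23584 bases over all its transcripts but 4360 in its canonical transcript, and per kilobase of canonical transcript NAMPT led at 35.8 ± 3.15 and 38.0 ± 6.57 RPKM. SIRT7 was then next at 21.9 ± 1.86 and 22.5 ± 1.66 RPKM, apart from NAMPT above it and SIRT2 below it, and SIRT5 was again lowest at 5.58 ± 0.0807 and 5.24 ± 0.0425 RPKM, overlapping NMNAT1.

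Promoter windows were searched because the E-box is the sequence that CLOCK and BMAL1 bind. Windows of 300 bases, from 250 before to 50 after the start site, came from RefSeq (GRCh38.p14). They matched 7 of the 10 members, with 9 windows in all; NAPRT, NNMT and SIRT7 had no entry. Both strands were searched for the E-box CACGTG, which reads the same on either strand, the related E′-box CACGTT, and the nuclear receptor motif AGGTCA. Of all 35116 windows, 7.26% held CACGTG, 5.34% held CACGTT and 13.8% held AGGTCA. SIRT1 was the single member with any match. Its window held CACGTG at bases 128 and 207, and 0.664% of all windows held that motif at least 2 times. The windows of NAMPT, NMNAT1, SIRT2, SIRT3, SIRT5 and SIRT6 held none of the 3 motifs. The NAMPT window lies inside the annotated gene, whose outermost start is further upstream. The windows of NAMPT (chr7:106284934-106285233, reverse strand) and SIRT1 (chr10:67884406-67884705, forward strand) are shown as the enzyme and the sirtuin of the clock loop. That of NR1D1 (chr17:40100540-40100839, reverse strand) is shown as a clock target that fell, with CACGTT on its reverse strand at base 83, which reads AACGTG as printed. Of the other 3 clock genes called lower, NR1D2 had 2 CACGTG in 1 of its 2 windows, TEF had 1 in each of 2 windows, and the 2 windows of PER3 held none of the motifs. CACGTG was also found in windows of clock genes that were not called, 3 times for CIART and 1 time each for PER1, BHLHE40 and BHLHE41. CACGTT, the motif of the NR1D1 window, was found 1 time each for CLOCK, PER2, CRY1 and CRY2, also not called. AGGTCA was found in 1 of the 2 windows of BMAL1, the clock gene called higher. It was also found in windows of PER1, CRY2 and NFIL3, which were not called. Sequences run 5′ to 3′ along the gene, and capitals mark the motifs.
NAMPT: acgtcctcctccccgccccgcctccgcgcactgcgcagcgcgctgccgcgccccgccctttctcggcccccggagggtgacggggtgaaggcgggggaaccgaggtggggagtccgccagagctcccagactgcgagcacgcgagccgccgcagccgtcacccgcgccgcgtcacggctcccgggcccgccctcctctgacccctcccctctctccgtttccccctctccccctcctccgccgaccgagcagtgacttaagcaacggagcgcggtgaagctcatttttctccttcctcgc
SIRT1: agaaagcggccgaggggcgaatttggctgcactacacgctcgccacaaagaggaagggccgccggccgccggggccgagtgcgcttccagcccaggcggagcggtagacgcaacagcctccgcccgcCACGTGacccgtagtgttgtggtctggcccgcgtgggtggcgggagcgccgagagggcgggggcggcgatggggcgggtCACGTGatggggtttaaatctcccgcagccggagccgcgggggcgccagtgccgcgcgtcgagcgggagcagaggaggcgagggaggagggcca
NR1D1: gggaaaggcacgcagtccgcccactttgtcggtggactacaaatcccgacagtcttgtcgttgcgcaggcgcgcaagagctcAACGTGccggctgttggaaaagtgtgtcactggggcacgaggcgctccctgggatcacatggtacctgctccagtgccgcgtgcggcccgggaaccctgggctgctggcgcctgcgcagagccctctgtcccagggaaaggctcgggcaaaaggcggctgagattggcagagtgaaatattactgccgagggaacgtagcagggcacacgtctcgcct
A match describes these letters in the window, and no match says only that the letters are not in this window.

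The genes around each member were then compared, taking the 20 nearest tested genes on either side. The 40 neighbours of SIRT1, from chr10:58191517-69633596, had a median log2 fold change of 0.29, and 36 of them lay above 0 and 4 below. Of these neighbours 8 were called higher and 0 lower, against 1.01% and 1.36% of all loci. The value of SIRT1 itself, 0.23, was below the median of its neighbours. With the GC trend removed the neighbours' median was 0.25, and it ranged from 0.24 to 0.36 over fits that omitted a library. Around NAMPT (chr7:102637049-112490941) the median was 0.17 with 34 of 40 neighbours above 0, and it was 0.12 with the GC trend removed and 0.07 without BMAL1 knockout replicate 1. NAMPT, at 0.09, was again below its neighbours' median. SIRT6 and its neighbours differed in sign, with 0.27 for the gene and a median of -0.11 for 40 neighbours, 31 of them below 0. The median around SIRT6 was -0.08 with the GC trend removed. It ranged from -0.18 to -0.06 over fits that omitted a library. NNMT, at -0.28, had 40 neighbours with a median of 0.03, and SIRT3, at -0.18, had 22 with a median of -0.03. Over fits that omitted a library, the neighbours' median ranged from 0.0004 to 0.05 for NNMT and from -0.11 to 0.01 for SIRT3. Medians around NMNAT1, NAPRT, SIRT2, SIRT5 and SIRT7 lay between -0.07 and -0.02 as counted. With the GC trend removed, those around NMNAT1 and SIRT2 turned to 0.009 and 0.001. Fits that omitted a library gave -0.16 to -0.0015 around NAPRT and -0.08 to 0.0002 around SIRT7. DNA copy number was not measured in the data used here, and its part in these values was not tested.

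**Figure D4:**
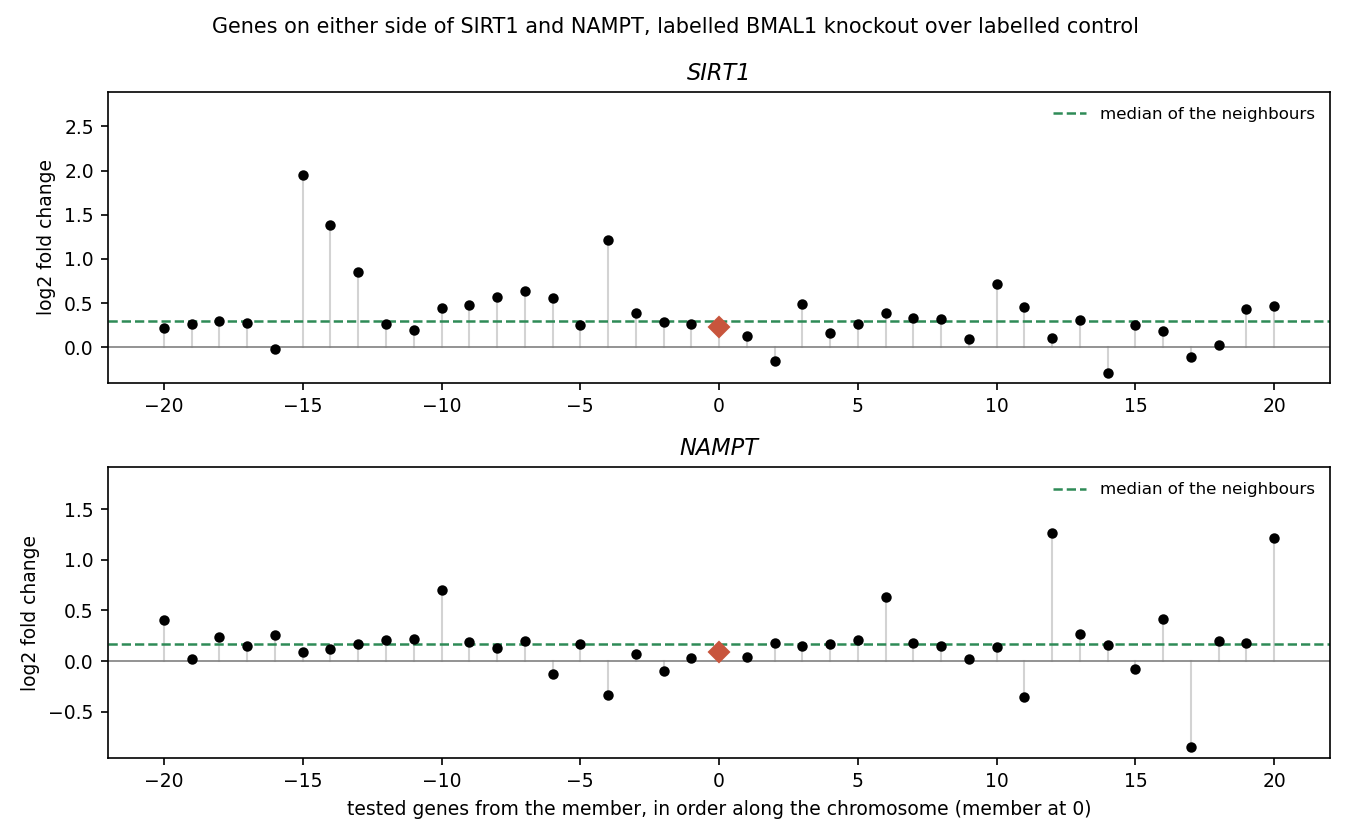
Log2 fold change, libraries labelled BMAL1 knockout over labelled control, of SIRT1 and NAMPT (red diamonds) and of the 20 tested genes on either side of each (black), in order along the chromosome; the dashed line is the neighbours' median. Around SIRT1 36 of 40 genes lie above 0, and around NAMPT 34 of 40.

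Other genes of NAD metabolism were described by list. Among 7 other NAD synthesis enzymes tested of 14, none was called by edgeR, DESeq2 or limma-voom, and none had an unadjusted p under 0.05 in edgeR. The most abundant, QPRT of the de novo pathway, measured 64.5 ± 4.10 and 64.2 ± 6.42 CPM. The other 7 were removed as low, among them NMRK2, TDO2, IDO2 and HAAO with 0 counts in every library. Of 11 genes of NAD phosphorylation, repair and transport tested of 13, none was called by any of the 3 tools, none had an unadjusted p under 0.05 in edgeR, and the median log2 fold change was -0.05. NNT, the mitochondrial transhydrogenase, was the most abundant at 135 ± 5.65 and 147 ± 3.03 CPM. Of 21 genes of ADP-ribosylation tested of 22, poly- and mono-ADP-ribosyltransferase family members and hydrolases that remove ADP-ribose, edgeR and limma-voom called none, and 1 was lower at an unadjusted p under 0.05 in edgeR. DESeq2 called 1 lower, ZC3HAV1, at 178 CPM in the libraries labelled control and 149 CPM in those labelled BMAL1 knockout. Their median was -0.06. PARP1, which consumes NAD when activated by DNA breaks, was the most abundant at 688 ± 10.1 and 631 ± 26.0 CPM.

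As counted, the genes that edgeR called in the lists of NAD metabolism were NT5E and AOX1. Of 5 NAD glycohydrolases and extracellular NAD enzymes tested of 7, NT5E was called lower and none higher. NT5E (CD73), the cell-surface nucleotidase that also splits nicotinamide mononucleotide to nicotinamide riboside, measured 56.6, 53.5 and 62.0 CPM in the libraries labelled control and 41.3, 23.9 and 27.4 CPM in those labelled BMAL1 knockout. The groups were apart, with BMAL1 knockout replicate 1 nearest to the controls. Its log2 fold change was -0.89 (SE 0.17; adjusted p = 0.0272 by edgeR's quasi-likelihood F-test and the Benjamini-Hochberg procedure), and 40 neighbours had a median of 0.10. That median was 0.06 with the GC trend removed and 0.02 without BMAL1 knockout replicate 1. The call of NT5E was kept without BMAL1 knockout replicate 1 or 2 and lost without any of the other 4 libraries, with log2 fold changes between -1.16 and -0.74 over the 6 fits. It was also lost without the filter on low counts, at -0.88, and with thinned counts, at -0.85. PNP, the phosphorylase that splits nicotinamide riboside, was the most abundant of the list at 83.0 ± 3.18 and 71.2 ± 10.5 CPM, and CD38 had 0 counts in every library.

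Among 9 genes of the methionine cycle and nicotinamide clearance tested of 12, AOX1 was called lower and none higher. AOX1, the aldehyde oxidase that oxidizes the methylnicotinamide made by NNMT, measured 19.5, 19.5 and 19.3 CPM in the libraries labelled control and 14.8, 12.8 and 12.5 CPM in those labelled BMAL1 knockout. The control values were nearly equal and all lay above the others. Its log2 fold change was -0.54 (SE 0.10; adjusted p = 0.0190 by edgeR's quasi-likelihood F-test and the Benjamini-Hochberg procedure), beside -0.28 for NNMT, which was not called. The call of AOX1 was kept without BMAL1 knockout replicate 1 and lost without any of the other 5 libraries, with log2 fold changes between -0.62 and -0.49. MAT2A, which makes the methyl donor used by NNMT, was the most abundant of the list at 519 ± 25.5 and 487 ± 21.7 CPM and was not called.

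Of 12 sirtuin regulators and partners tested, SIRT4 included, none was called by edgeR, DESeq2 or limma-voom, while 1 was higher and 1 lower at an unadjusted p under 0.05 in edgeR. CTBP1, a corepressor that binds NADH, was the most abundant at 154 ± 10.4 and 127 ± 13.5 CPM. The 11 zinc-dependent deacetylases, which need no NAD, had 0 called by edgeR, DESeq2 and limma-voom and 1 lower at an unadjusted p under 0.05 in edgeR. Their median was 0.01, as for the sirtuins and salvage enzymes, and HDAC1 was the most abundant at 199 ± 7.90 and 202 ± 6.64 CPM. Of 18 clock genes tested of 19, BMAL1 was called higher and 4 were called lower. CLOCK, the partner of BMAL1, was the most abundant at 117 ± 9.29 and 108 ± 3.07 CPM and was not called. Beside NR1D1, those lower were NR1D2 (68.2 ± 8.48 to 39.7 ± 2.26 CPM), PER3 (26.6 ± 0.803 to 18.9 ± 1.35 CPM) and TEF (12.6 ± 0.953 to 8.85 ± 0.162 CPM). NR1D2 was called in all 6 fits that left out a library. PER3 was called in 2 of the 6, those without BMAL1 knockout replicate 1 or 3, and TEF in 1, that without BMAL1 knockout replicate 1. Neither PER3 nor TEF was called with the replicate block, described below. Over the fits that left out a library, the log2 fold changes ran from -0.55 to -0.46 for PER3 and from -0.56 to -0.44 for TEF. Exons of PER3 overlap UTS2 on the other strand.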

How the data were processed

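RNA-seq was analysed in 6 libraries. The authors discarded reads that held adapters or poor-quality bases, aligned the remainder to hg38, and deposited integer counts per gene from reads with a unique alignment; columns are neither normalized nor pooled. The methods name fastp 0.20.1 for mapping and HISAT2 2.0.4 for counting, as printed there; gene annotation and strandedness are not given in the sources used here. Columns were matched to samples by name.

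From the counts, edgeR 4.0.16 (R 4.3.3) gave TMM-normalized CPM and log2 fold changes from a robust quasi-likelihood fit after its default low-count filter. The 2-sided p-values were adjusted over 14860 loci (Benjamini-Hochberg). Printed SEs were computed from the log2 fold change and the F statistic of the test, so SEs and 95% intervals restate the p-value. RPKM was computed from CPM and exon lengths of GENCODE v44 (hg38), in which 20018 of 22354 loci were found by name. Between replicates of a group, squared differences were 5.41 to 45 times what Poisson counting predicts, an average over all loci that need not hold for a single gene. Of the members, SIRT5 in both groups and NNMT and SIRT1 in the libraries labelled BMAL1 knockout had an SD below counting error. The fits were tested on simulated data with the same variation beyond counting error at all loci and no GC trend. The simulated fold changes were larger than those of the members, so this test does not cover differences as small as theirs.

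The members and lists were chosen with earlier results of these data known. All 10 members are named, and of each of 8 lists the genes called and the most abundant, with BMAL1, NR1D1 and, for NAMPT and each member called, the 3 nearest named loci with a mean of at least 1 CPM. No member was called as counted. ZC3HAV1 and genes singled out among the cell type markers were chosen after their values were seen. Tried as alternatives were size factors by median of ratios or by totals alone, dropping the filter or asking for 10 counts in each library, DESeq2 1.42.0, limma-voom (limma 3.58.1), a replicate block, removal of each library's trend on exon GC content (loess, span 0.3), both together, thinning to the smallest total, and leaving out each library. The alternatives for the lists, the fit on loci with known GC content without correction, the canonical transcript length and the windows of neighbours (20 genes on either side) were chosen after seeing the data.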

Additional observations from a re-analysis of the deposited data

How the results depend on the processing

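Of the 10 members, NAPRT, NNMT, SIRT1, SIRT2, SIRT3, SIRT5 and SIRT6 kept their direction under all 17 alternatives. NAMPT turned to a log2 fold change of -0.0647 without BMAL1 knockout replicate 1 and lay between -0.0647 and 0.168 over the fits that left out a library. NMNAT1 turned to 0.0120 with library size only and to 0.0101 with thinned counts, and SIRT7 to -0.00541 with thinned counts. Leaving out a library gave -0.0523 to 0.0419 for NMNAT1, with 0.0419 without control replicate 1 and 0.0233 without BMAL1 knockout replicate 3. It gave -0.0319 to 0.0924 for SIRT7, with -0.0319 without control replicate 3 and -0.00521 without BMAL1 knockout replicate 2. The cause of these turns was not tested.

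Members called were 0 higher and 0 lower under each alternative except removal of the GC trend, with 1 lower (NNMT). The same 13578 loci without the correction gave 0. Over all loci, DESeq2 called 256 higher and 379 lower, and removal of the GC trend 486 and 533. Leaving out a library gave 39 to 323 higher and 65 to 360 lower, the most without BMAL1 knockout replicate 1. In the lists, 1 gene higher and 6 lower became 2 and 8 with the GC trend removed, and 0 to 1 and 2 to 8 when a library was left out. The genes that removal of the GC trend added were HIC1 (higher), ZC3HAV1 and CTBP1 (lower), chosen after their values were seen. The cause of these differences was not tested.

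The labels give both groups replicate numbers 1 to 3. Deviations of libraries with the same number had correlations of -0.09, -0.05 and -0.00 across loci. Those of libraries with different numbers ranged from -0.05 to 0.10. With 3 libraries per group such values cannot decide whether replicates were paired, and the labels name no pairing. With the replicate block, 97 loci were called higher and 119 lower, and with the replicate block and the GC trend removed, 378 and 429; members called were 0 in both. By edgeR's quasi-likelihood F-test and the Benjamini-Hochberg procedure, PER3 had an adjusted p of 0.0543 with the replicate block (0.000704 to 0.0957 over its 17 alternatives, the lowest by DESeq2). TEF, by edgeR's quasi-likelihood F-test and the Benjamini-Hochberg procedure, had an adjusted p of 0.0754 with the replicate block and 0.0529 with the GC trend removed as well (0.0129 to 0.140 over its 17 alternatives, the lowest by DESeq2). Their log2 fold changes with the replicate block were -0.49 and -0.50, beside -0.49 and -0.51 without it.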
